A study of Mus musculus with 17 samples.

Results

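The genes described here code for proteins of the cytosolic ribosome, measured in pancreatic islets of mice. They are the genes whose symbol is Rpl or Rps followed by a number and at most 1 letter, together with Rplp0, Rplp1, Rplp2 and Rpsa, without the S6 kinases (Rps6k genes) and without pseudogenes named -ps. Each gene was taken from the probe set, among those that name it alone, with the highest mean over all arrays. This gave 59 of the 19938 genes tested, 37 of the large (60S) subunit and 22 of the small (40S) subunit. The rule uses symbols and mean levels alone. RefSeq holds 82 protein-coding genes of this pattern, and 24 of them were not analysed here. One of the 59, Rps4l, is annotated in RefSeq as a transcribed pseudogene and not as protein-coding.

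The islets came from untreated mice of 2 months in 5 groups, and 17 Affymetrix whole-transcript arrays were used. Mice labelled Men1flf, Rbp2flf, RIP-Cre, here the double knockout, gave 4 arrays, Men1flf, RIP-Cre mice gave 3 (Men1 knockout), and Rbp2flf, RIP-Cre mice gave 4 (Rbp2 knockout). All 3 are read against 3 arrays of RIP-Cre mice, which carry the transgene without floxed genes in their label, and those against 3 arrays of wt mice. RIP-Cre is Cre recombinase under the rat insulin promoter, which is active in beta cells, so other islet cells would keep their floxed genes, and strain and sex are not given in the labels used here. Menin, the product of Men1, is a tumour suppressor in endocrine organs and a partner of histone H3 lysine 4 methyltransferases, and Rbp2, now Kdm5a, takes that methylation off. Whether each array is an animal of its own is not in the labels, so p-values may cover technical spread only.

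Ribosomal proteins are made in the cytoplasm, enter the nucleus, and are joined there to ribosomal RNA to form the large and the small subunit. The large subunit forms the peptide bond and the small subunit reads the messenger RNA. Genes of this family are among the most strongly expressed in beta cells and other secretory cells, and many of their messengers begin with a run of pyrimidines that ties their translation to the mTOR pathway. Several members have a paralogue, and the family has many processed pseudogenes in mammals, so a probe set can take up signal of a near-identical copy; levels of different genes on these arrays are therefore not compared with each other as amounts.

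Men1 had log2 intensities of 8.14, 8.43 and 8.42 in the Men1 knockout arrays and from 8.46 to 8.87 in the double knockout arrays, against 9.31, 9.49 and 9.38 in the RIP-Cre arrays. All arrays with a floxed Men1 thus lay below all RIP-Cre arrays, while Men1 rose by 0.73 in Rbp2 knockout islets. Kdm5a read 9.18, 9.02, 9.01 and 8.95 in the Rbp2 knockout arrays and 9.39, 9.07, 9.39 and 9.10 in the double knockout arrays. The RIP-Cre arrays had 9.37, 9.31 and 9.09, and Kdm5a was not called in either comparison (-0.02 in double knockout islets). The files do not say whether its probes lie in the floxed part, so it does not check that label. On the deposited values the mean of 8 beta cell markers was higher in every knockout array (12.24 to 12.56) than in every RIP-Cre or wt array (11.59 to 12.17). The part of this in the results was not tested. The mean of 6 acinar markers, which show exocrine tissue carried along, lay between 8.04 and 10.60 over the 17 arrays. RIP-Cre array 3 (arrays are numbered within their group) had the lowest beta cell mean (11.59) and the highest acinar mean (10.60). It also had the highest median over all genes (8.16, against 7.97 and 8.03 in the other RIP-Cre arrays). Without this array 10 of the 23 members called in Men1 knockout, all 8 called in Rbp2 knockout and 14 of the 24 called in double knockout against RIP-Cre islets were no longer called. In bulk islets, fewer cells of a type and less RNA per cell cannot be told apart.

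Windows around the annotated transcription start were searched for pyrimidine runs, wherever in the window they lay. Of the 59 members, 47 had a start window in RefSeq's table (GRCm38.p6), the 10 bases before the start and the 50 from it on, on the gene's own strand. A run was taken as a C followed by bases that are each C or T, a definition made after these windows had been seen. In 31 of the 47 members (66.0%) the longest run had 8 or more bases, against 5106 of 27025 genes of the table (18.9%), and the median longest run was 9 bases in the members and 5 in all genes. Below are the stretches around the longest run, in capitals, of the members that were called in Men1 knockout islets on the deposited values and again after cyclic loess normalization and have a window. Rpl29, Rps29 and Rps4l, called likewise, are not in the table. First come the 4 that were higher than in RIP-Cre islets.
Rpl7a (chr2:26910789-26910818, plus strand): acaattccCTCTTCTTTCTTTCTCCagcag
Rpl10 (chrX:74270836-74270865, plus strand): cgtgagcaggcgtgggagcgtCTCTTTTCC
Rpl4 (chr9:64173405-64173434, plus strand): gagcgtggCCTTCTCCTCTCCCCgtcatgg
Rps13 (chr7:116334157-116334186, minus strand): tggcgtcaCTTCCTgtgcggcttgatttcc
Then come the 5 that were lower.
Rpl22 (chr4:152324418-152324447, plus strand): cagcgctgCTTCTggaatgttccagctccc
Rpl14 (chr9:120571501-120571530, plus strand): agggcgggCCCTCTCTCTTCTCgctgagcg
Rpl13 (chr8:123102370-123102399, plus strand): tggccggaCTCCCTacaagcccagggtgct
Rpl24 (chr16:55966295-55966324, plus strand): gaagtgacatcatCTCTgggcgccggggtc
Rps19 (chr7:24884612-24884641, plus strand): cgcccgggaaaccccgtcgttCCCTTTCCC
Within the window the run had 17 bases in Rpl7a, 15 in Rpl4, 9 in Rpl10 and 6 in Rps13, against 5 in Rpl22, 14 in Rpl14, 6 in Rpl13, 4 in Rpl24 and 9 in Rps19. The pyrimidines of Rpl7a go on upstream of the window, so its length is cut by the window. The runs of Rpl10 and Rps19 end at the last base of the window, so their lengths may be cut as well. With the start base as 0, the run began at -10 in Rpl7a, 26 in Rpl4, 41 in Rpl10 and 12 in Rps13, against -10 in Rpl22, -8 in Rpl14, 28 in Rpl13, 33 in Rpl24 and 41 in Rps19. A run that begins downstream does not lie at the first base of the annotated messenger. Long and short runs thus stand among the higher and among the lower members, and a match in these letters is a description only.

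In Men1 knockout islets the ribosomal protein genes did not move as 1 block. Of the 59 members, 14 were higher and 9 lower than in RIP-Cre islets at an adjusted p under 0.05 (limma), and 36 were not called. Over all genes 53.5% were called, 15.7% higher and 37.8% lower. The median log2 fold change of the members was 0.12, against -0.23 over all genes. The members that rose most were Rpl7a, Rpl10, Rpl4, Rpl21 and Rps13, and those that fell most were Rpl22, Rpl39l, Rpl14, Rps4l and Rpl13. Of 37 large subunit members 9 were higher and 6 lower (median 0.12), and of 22 small subunit members 5 were higher and 3 lower (median 0.125). Without RIP-Cre array 3 the counts were 6 higher and 7 lower, with a median of 0.055; the calls lost were those of Rpl5, Rpl23, Rpl24, Rpl27, Rpl32l, Rpl36a, Rpl39l, Rps2, Rps25 and Rps27l. Over single arrays left out, 10 of the 23 calls were never lost.

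The fold changes on these arrays ran with the level of the gene, which bears on a family as bright as this one. In Men1 knockout against RIP-Cre islets, the lowest 10% of genes by mean level had a median log2 fold change of -0.43 and the highest 10% 0.20. The highest 10% held 47 of the 59 members. Those 47 had a median of 0.14 with 12 called higher and 4 lower, against 0.20 with 799 higher and 215 lower among the 1947 other genes there. After cyclic loess normalization, which removes a trend with level, the member median was -0.18 with 4 called higher and 21 lower, against 18.4% higher and 16.0% lower over all genes. Quantile normalization gave -0.19 with 4 higher and 19 lower, and with the array median as a covariate the median was -0.14 with 0 higher and 1 lower. The array medians over all genes were 7.86 to 7.87 in Men1 knockout and 7.88 to 7.95 in double knockout arrays. All lay below the 7.97 to 8.16 of RIP-Cre arrays. That covariate therefore takes up part of the genotype difference, and calls lost with it do not tell the 2 apart. The direction of the family as a whole in Men1 knockout islets thus turned with the scaling, whereas 12 of the 23 called members, 4 higher and 8 lower, were called the same way after cyclic loess normalization.

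**Figure D1:**
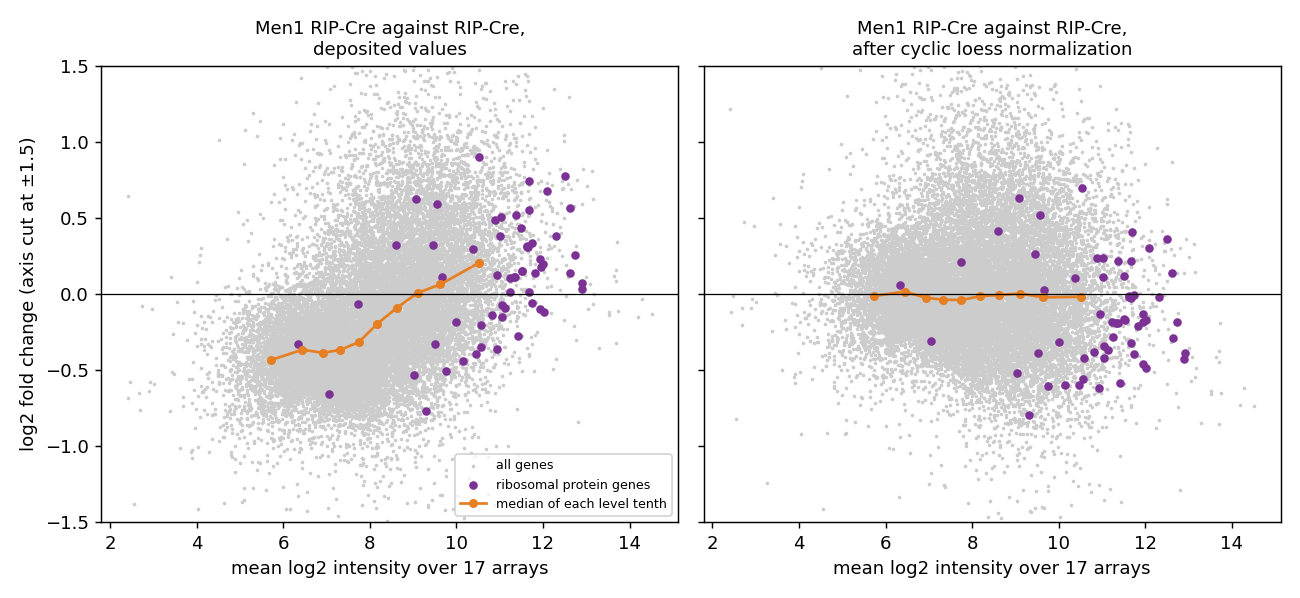
Log2 fold change in Men1 knockout against RIP-Cre islets (vertical axis, cut at 1.5 either way) by mean log2 intensity over the 17 arrays (horizontal axis), for all genes (grey), the 59 ribosomal protein genes (purple) and the median of each of 10 level classes (orange line). On the deposited values the line climbs from -0.43 to 0.20, and the member median is 0.12; after cyclic loess normalization the line is near 0 and the member median is -0.18.

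In Rbp2 knockout islets 6 members were higher and 2 lower than in RIP-Cre islets, where 13.4% of all genes were called, 6.70% higher and 6.70% lower. The higher ones were Rps27l, Rpl10, Rpl32l, Rpl4, Rpl21 and Rpl7a, and the lower ones Rpl22 and Rpl14. The member median was 0.22, against -0.13 over all genes and 0.18 in the other genes of the highest 10% by level, of which 508 were higher and 52 lower. The large subunit held 5 of the higher and both of the lower members (median 0.24 over 37), and the small subunit 1, Rps27l (median 0.15 over 22). Cyclic loess normalization gave 1 higher and 3 lower, against 5.61% and 3.81% of all genes, with a median of -0.04. Quantile normalization gave 2 higher and 2 lower with a median of 0.02, and with the array median as a covariate 0 were called and the median was 0.04. These calls rest on few arrays. Calls numbered 0 without Rbp2 knockout array 1 or without RIP-Cre array 3, 1 without Rbp2 knockout array 2, 3 without array 4, 5 without RIP-Cre array 2, and 13 without Rbp2 knockout array 3. Each of the 8 calls was lost without at least 1 single array. Those of Rps27l, Rpl10, Rpl4, Rpl21, Rpl22 and Rpl14 were also lost with wt in place of RIP-Cre. The same calls were lost when only the arrays compared were fitted.

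In double knockout islets 20 members were higher and 4 lower than in RIP-Cre islets, where 33.7% of all genes were called, 13.0% higher and 20.6% lower. Rps27l, Rpl10, Rpl7a, Rpl4 and Rpl21 had the highest fold changes, and Rpl22, Rpl39l, Rpl14 and Rpl24 were the lower ones. The median was 0.24 (0.235 unrounded), against -0.15 over all genes and 0.21 in the other genes of the highest 10% by level, of which 778 were higher and 148 lower. The large subunit held 16 higher and 4 lower members (median 0.27 over 37), the small subunit 4 higher and 0 lower (median 0.16 over 22, with 6 of the 22 at an unadjusted p under 0.05). After cyclic loess normalization 7 members were higher and 10 lower, against 13.9% and 11.4% of all genes, with a median of -0.06. Quantile normalization gave 8 higher and 8 lower with a median of -0.05, and with the array median as a covariate 0 were called and the median was -0.01. The 3 comparisons share the RIP-Cre arrays. The double knockout count was 10 without RIP-Cre array 3, where Rpl5, Rpl6, Rpl23, Rpl27, Rpl28, Rpl30, Rpl32l, Rpl34, Rpl36a, Rpl39l, Rplp1, Rplp2, Rps2 and Rps6 lost their calls. It was 10 without double knockout array 4 and 11 without double knockout array 2. Over single arrays left out, 7 of the 24 calls were never lost, those of Rpl10, Rpl21, Rpl22, Rpl4, Rpl7a, Rps13 and Rps27l.

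**Figure D2:**
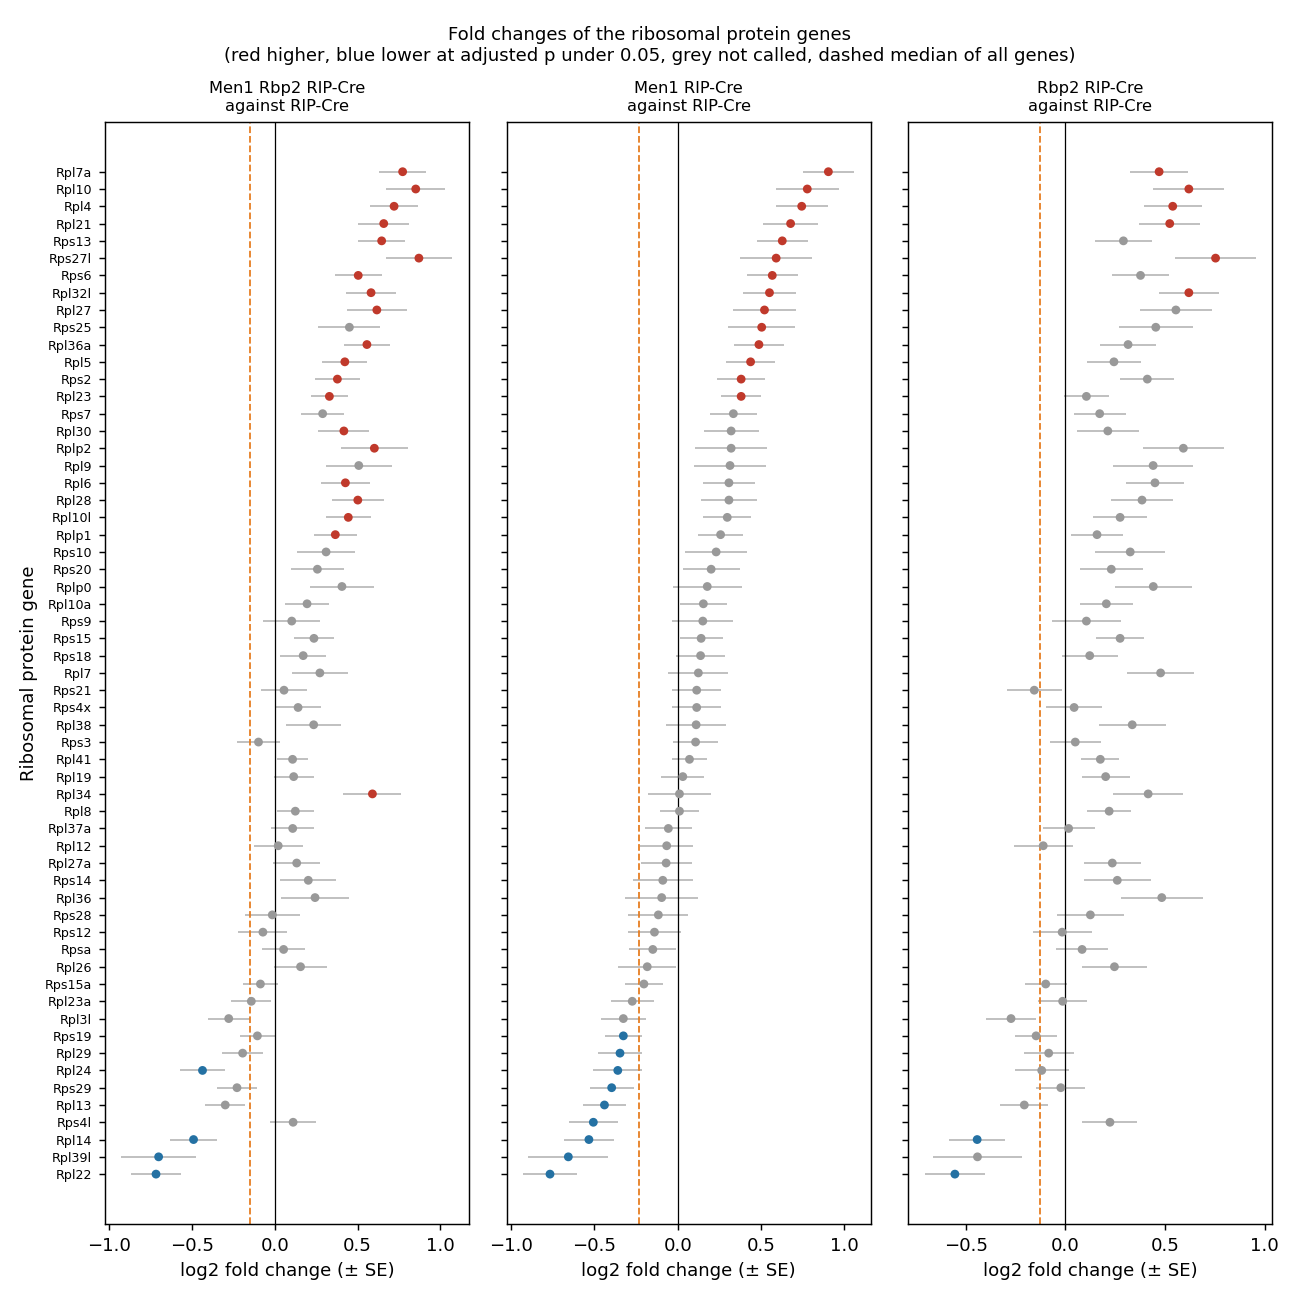
Log2 fold change with its standard error (horizontal axis) of each of the 59 ribosomal protein genes (rows, ordered by the Men1 knockout value) in double knockout, Men1 knockout and Rbp2 knockout islets against RIP-Cre islets; red is called higher, blue called lower, grey not called, and the dashed line is the median of all genes. The called members number 20 higher and 4 lower, 14 higher and 9 lower, and 6 higher and 2 lower in these 3 panels.

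Among the members with the highest fold changes were several large subunit genes. Rpl7a, a core protein of that subunit, had log2 intensities of 10.55, 11.00, 10.60 and 11.10 in double knockout arrays, 10.84, 11.04 and 10.95 in Men1 knockout arrays and 10.75, 10.49, 10.34 and 10.46 in Rbp2 knockout arrays. In RIP-Cre arrays it had 10.25, 10.09 and 9.78. Every knockout array was above every RIP-Cre array. On the log2 scale, where 1 unit is a 2-fold change, Rpl7a rose by 0.90 with a standard error of 0.15 in Men1 knockout (limma adjusted p = 0.000658), by 0.77 with 0.14 in double knockout (adjusted p = 0.00274) and by 0.47 with 0.14 in Rbp2 knockout islets (adjusted p = 0.0433). The last call was lost after cyclic loess normalization and without Rbp2 knockout array 1, 2 or 4 or RIP-Cre array 2 or 3, whereas the first 2 were kept with 0.69 and 0.57. Its 3 probe sets disagreed, however: the dimmest read -0.17 in Men1 knockout and 0.04 in double knockout islets.

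Rpl10, which joins the large subunit late in its maturation and sits near the sites where transfer RNAs bind, had 12.72, 12.88 and 12.74 in Men1 knockout arrays and 12.68, 13.04, 12.51 and 13.19 in double knockout arrays, against 12.25, 11.96 and 11.80 in RIP-Cre arrays. The groups did not overlap. Rpl10 rose by 0.78 ± 0.19 (SE) in Men1 knockout (limma adjusted p = 0.00466) and by 0.85 ± 0.18 in double knockout islets (adjusted p = 0.00437), with 6 of 6 probe sets called higher in each. After cyclic loess normalization the values were 0.36 and 0.42, still called, whereas quantile normalization left 0.37 in Men1 knockout (not called) and 0.54 in double knockout islets, called. In Rbp2 knockout islets it was 12.93, 12.53, 12.30 and 12.73 and rose by 0.62 ± 0.18 (limma adjusted p = 0.0362), a call that was lost after cyclic loess normalization and without Rbp2 knockout array 1, 2 or 4 or RIP-Cre array 2 or 3.

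Rpl4, whose extension lines the tunnel through which the new protein leaves, had 11.99, 12.04 and 11.94 in Men1 knockout arrays and 11.91, 12.12, 11.71 and 12.13 in double knockout arrays, against 11.41, 11.24 and 11.09 in RIP-Cre arrays. These groups stood apart as well, and Rpl4 rose by 0.74 ± 0.16 in Men1 knockout (limma adjusted p = 0.00207) and by 0.72 ± 0.15 in double knockout islets (adjusted p = 0.00378). It kept both calls after cyclic loess normalization, with 0.41 and 0.38. Rpl4 rose in Rbp2 knockout islets too, by 0.54 ± 0.15 (limma adjusted p = 0.0303), and that call was lost after cyclic loess normalization and without Rbp2 knockout array 1 or 2 or RIP-Cre array 3. Rpl21, another core protein, rose by 0.68, 0.66 and 0.52 in Men1 knockout, double knockout and Rbp2 knockout islets, with all 9 of its probe sets called higher in the first 2 comparisons, but none of these calls was kept after cyclic loess normalization, and the Rbp2 knockout call was lost without Rbp2 knockout array 1, 2 or 4 or RIP-Cre array 3.

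Rpl36a, a small protein near the exit site of transfer RNA whose paralogue Rpl36al was not analysed here, rose by 0.56 ± 0.14 in double knockout islets (limma adjusted p = 0.00955), with 11.18, 11.28, 10.84 and 11.26 in double knockout arrays, against 10.83, 10.57 and 10.35 in RIP-Cre arrays. Cyclic loess normalization left 0.31, still called, whereas the call was lost without RIP-Cre array 3. In Men1 knockout islets Rpl36a rose by 0.49 (limma adjusted p = 0.0138), and there the call was lost both after cyclic loess normalization and without that array.

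The acidic stalk, formed by Rplp0 with Rplp1 and Rplp2, is the arm of the large subunit that recruits elongation factors. In Rbp2 knockout arrays Rplp0 read 12.49, 12.29, 11.85 and 12, against 11.84, 11.76 and 11.55 in RIP-Cre arrays, so the groups did not overlap, but its log2 fold change of 0.44 was not called (limma adjusted p = 0.110). Rplp0 was not called in the Men1 knockout (0.18) or double knockout (0.41) either. In double knockout islets Rplp1 rose by 0.37 (limma adjusted p = 0.0388) and Rplp2 by 0.60 ± 0.20 (adjusted p = 0.0336). Rplp2 had 8.92, 9.04, 8.48 and 8.94 there, against 8.41, 8.22 and 8.10 in RIP-Cre arrays, and kept the call after cyclic loess normalization (0.67), whereas Rplp1 read -0.09 there and was not called. Both calls were lost without double knockout array 1, 2 or 4 or RIP-Cre array 3, and that of Rplp2 also without RIP-Cre array 2.

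Rpl5, which carries 5S ribosomal RNA into the large subunit and with Rpl11 can hold the p53 regulator Mdm2, averaged 11.71 ± 0.15 in Men1 knockout (SD, n = 3) and 11.70 ± 0.12 in double knockout arrays (n = 4), against 11.28 ± 0.24 in RIP-Cre arrays (SD 0.235 unrounded, n = 3). It rose by 0.44 (limma adjusted p = 0.0212) and 0.42 (adjusted p = 0.0281) on the deposited values. Neither call was kept after cyclic loess normalization or without RIP-Cre array 3. The Men1 knockout call was also lost without Men1 knockout array 1 or 2, and the double knockout call without double knockout array 2 or 4. In Rbp2 knockout islets Rpl5 differed by 0.24 and was not called.

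Against this, 2 large subunit genes, Rpl22 and Rpl14, were called lower in all 3 knockout groups. Rpl22, a protein outside the catalytic core that is needed for lymphocyte development in mice, had 9.05, 9.04 and 8.89 in Men1 knockout arrays, 9.32, 8.68, 9.25 and 8.92 in double knockout arrays and 9.05, 9.32, 9.48 and 8.97 in Rbp2 knockout arrays. In RIP-Cre arrays it had 9.87, 9.58 and 9.83, above all 11 knockout arrays. Rpl22 fell by 0.77 on the log2 scale in Men1 knockout islets, with a standard error of 0.16 (limma adjusted p = 0.00209), by 0.72 with 0.15 in double knockout islets (adjusted p = 0.00451) and by 0.56 with 0.15 in Rbp2 knockout islets (adjusted p = 0.0305). After cyclic loess normalization the values were -0.80, -0.75 and -0.60, all called. Only in the Rbp2 knockout did single arrays end the call, namely Rbp2 knockout array 1, 2 or 4 or RIP-Cre array 1 or 3. That call was also lost with wt in place of RIP-Cre and with only the arrays compared. Lymphocyte markers averaged 7.09 to 7.30 in Men1 knockout, 6.95 to 7.96 in double knockout and 6.67 to 6.85 in Rbp2 knockout arrays, against 6.73 to 7.23 in RIP-Cre arrays, and their part in the result was not tested. Of these 4 markers Cd79a, of B cells, was called, with 8.02, 7.58 and 6.89 in Men1 knockout and 8.41, 7.22, 6.86 and 7.25 in double knockout arrays, against 6.06, 6.19 and 6.47 in RIP-Cre arrays. In Men1 knockout islets only 1 of the 4, Cd79a, had a log2 fold change above 0 (median of the 4 -0.07). In double knockout islets 3 of the 4 did (median 0.11). Cd79a rose by 1.26 in Men1 knockout (limma adjusted p = 0.0339) and by 1.195 in double knockout islets (adjusted p = 0.0457), and each call was lost without any 1 RIP-Cre array.

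Rpl14 had 9.20, 8.78 and 8.51 in Men1 knockout, 8.96, 8.70, 8.87 and 8.96 in double knockout and 8.86, 9.07, 9.02 and 8.73 in Rbp2 knockout arrays, against 9.39, 9.44 and 9.26 in RIP-Cre arrays, with no overlap. Rpl14 fell by 0.53 in Men1 knockout (limma adjusted p = 0.00897), by 0.49 in double knockout (adjusted p = 0.0166) and by 0.44 in Rbp2 knockout islets (adjusted p = 0.0470), with standard errors of 0.15, 0.14 and 0.14. The double knockout call was lost without double knockout array 2. The Rbp2 knockout call was lost without any 1 of the 3 RIP-Cre arrays or Rbp2 knockout array 1, 2 or 4. It was also lost with wt in place of RIP-Cre and with only the arrays compared. The repeat number as a block and the acinar mean as a covariate each ended it too. All 3 calls were kept after cyclic loess normalization, with -0.52, -0.49 and -0.45.

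Rpl24, which forms a bridge to the small subunit, had 11.07, 10.42, 10.76 and 10.59 in double knockout arrays, against 11.30, 11.14 and 11.00 in RIP-Cre arrays. Double knockout array 1 overlapped with the RIP-Cre arrays. Rpl24 fell by 0.44 ± 0.14 there (limma adjusted p = 0.0246) and by 0.36 in Men1 knockout islets (adjusted p = 0.0472), where 1 of its 3 probe sets was called. The double knockout call was lost without double knockout array 2 or 4 or RIP-Cre array 1, and the Men1 knockout call without any 1 of the 6 arrays compared. Rpl13 had 9.83, 10.05 and 9.87 in Men1 knockout arrays, against 10.50, 10.29 and 10.28 in RIP-Cre arrays. It fell by 0.44 ± 0.13 (limma adjusted p = 0.0115), with 9 of 9 probe sets called lower, and no single array ended the call. Rpl29, which is dispensable in mice, fell by 0.35 in Men1 knockout islets (adjusted p = 0.0382), and its level there lay below that of every RIP-Cre array, with 10.18, 10.56 and 10.31 against 10.80, 10.72 and 10.57 in RIP-Cre arrays. The Rpl29 call was lost without Men1 knockout array 1 or 3 or RIP-Cre array 1 or 2. All 3 of these genes kept their Men1 knockout call after cyclic loess normalization, with -0.62 for Rpl24, -0.60 for Rpl13 and -0.56 for Rpl29.

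**Figure D3:**
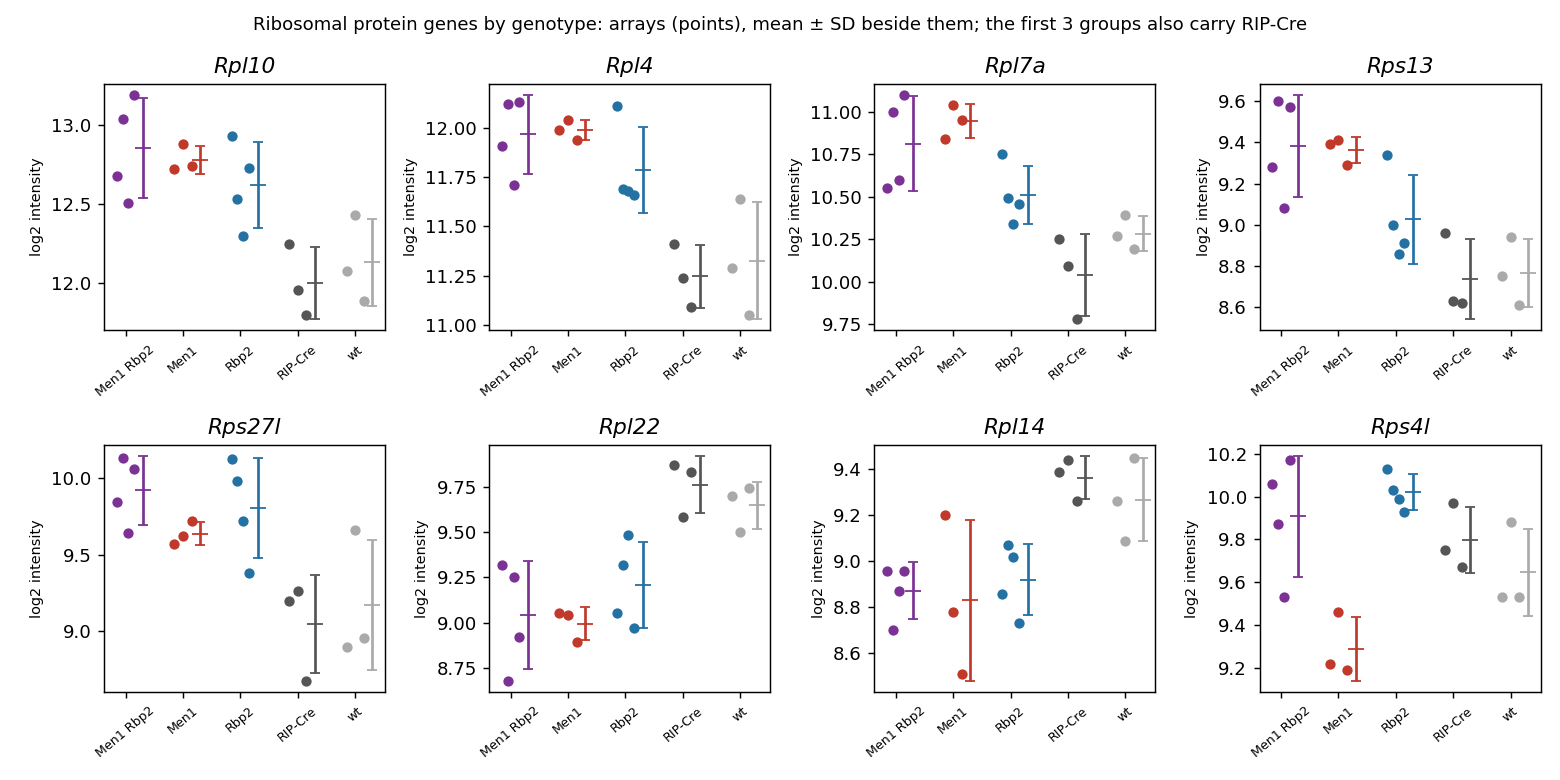
Log2 intensity (vertical axes) of 8 ribosomal protein genes in each array by genotype (points), with the group mean ± SD beside them; double knockout, Men1 knockout, Rbp2 knockout, RIP-Cre and wt run from left to right, with 4, 3, 4, 3 and 3 arrays. Rpl10, Rpl4 and Rpl7a are higher in all knockout arrays than in RIP-Cre arrays, Rpl22 and Rpl14 are lower, and Rps4l is lower in the Men1 knockout arrays (9.19 to 9.46).

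In the small subunit, Rps13 rose by 0.63 ± 0.15 in Men1 knockout (limma adjusted p = 0.00446) and by 0.65 ± 0.14 in double knockout islets (adjusted p = 0.00546). Its values were 9.39, 9.41 and 9.29 in Men1 knockout and 9.28, 9.60, 9.08 and 9.57 in double knockout arrays, against 8.96, 8.63 and 8.62 in RIP-Cre arrays. All 3 of its probe sets were called higher in both comparisons, and cyclic loess normalization left 0.63 and 0.65. It read 0.29 in Rbp2 knockout islets and was not called. Rps6, the target of the S6 kinases, had 12.88, 12.91 and 12.85 in Men1 knockout arrays, against 12.66, 12.24 and 12.04 in RIP-Cre arrays, and rose by 0.57 ± 0.15 (limma adjusted p = 0.00747). It rose by 0.50 ± 0.14 in double knockout islets (adjusted p = 0.0163). Both Rps6 calls were lost after cyclic loess normalization, and the double knockout one also without RIP-Cre array 3 or double knockout array 4.

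The small subunit members called lower in Men1 knockout against RIP-Cre islets were Rps4l, Rps29 and Rps19. Rps29, a small protein with a zinc site, had 10.06, 10.29 and 10.24 in Men1 knockout arrays, against 10.74, 10.61 and 10.43 in RIP-Cre arrays, and fell by 0.40 (limma adjusted p = 0.0199) with 4 of 4 probe sets called. Rps19, whose human counterpart is mutated in Diamond-Blackfan anaemia, had 9.34, 9.43 and 9.14 in Men1 knockout arrays, against 9.71, 9.64 and 9.54 in RIP-Cre arrays, and fell by 0.33 (adjusted p = 0.0237). The Rps29 call was lost without Men1 knockout array 1 or RIP-Cre array 1, and the Rps19 call without Men1 knockout array 3 or RIP-Cre array 1. Both kept the call after cyclic loess normalization, with -0.60 and -0.39. Rpsa, which is also known as a laminin receptor, was not called in any of the 3 comparisons (-0.15, 0.08 and 0.05 in Men1 knockout, Rbp2 knockout and double knockout islets), but in Men1 knockout islets it was called lower after cyclic loess normalization (-0.42). Its other probe sets differed from this one in Men1 knockout islets, where 4 of its 5 were called lower, down to -0.68.

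Rps27l, the paralogue of Rps27 and a p53 target in human cells, rose in all 3 knockout groups. It had 9.84, 10.13, 9.64 and 10.06 in double knockout, 9.57, 9.62 and 9.72 in Men1 knockout and 10.12, 9.98, 9.72 and 9.38 in Rbp2 knockout arrays, against 9.20, 9.26 and 8.68 in RIP-Cre arrays. No knockout array reached down to the RIP-Cre arrays, although wt arrays spread from 8.90 to 9.66. The rise was 0.87 ± 0.20 in double knockout (limma adjusted p = 0.00686), 0.75 ± 0.20 in Rbp2 knockout (adjusted p = 0.0292) and 0.59 ± 0.22 in Men1 knockout islets (adjusted p = 0.0310). The first 2 calls were kept after cyclic loess normalization (0.80 and 0.69) and the Men1 knockout call was not. It was also lost without any 1 of the 3 Men1 knockout arrays or RIP-Cre array 3, and the Rbp2 knockout call without Rbp2 knockout array 1 or 2 or RIP-Cre array 3. With wt in place of RIP-Cre, the Men1 knockout and Rbp2 knockout calls were lost and the double knockout call was kept.

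Rps4l was lowest in the Men1 knockout. It had 9.22, 9.46 and 9.19 in Men1 knockout, 10.06, 9.87, 9.53 and 10.17 in double knockout and 10.13, 10.03, 9.99 and 9.93 in Rbp2 knockout arrays, against 9.75, 9.97 and 9.67 in RIP-Cre arrays. The 3 Men1 knockout arrays were the lowest of the 17. Rps4l fell by 0.51 ± 0.15 in Men1 knockout against RIP-Cre islets (limma adjusted p = 0.0110; 0.0521, not called, with wt in place of RIP-Cre) and by 0.73 ± 0.14 against Rbp2 knockout islets (adjusted p = 0.00272). In double knockout against Men1 knockout islets it rose by 0.62 ± 0.14 (limma adjusted p = 0.0301), a call lost without double knockout array 1, 2 or 4 or Men1 knockout array 1 or 3. Both of its probe sets were called in these 3 comparisons. The interaction (double minus Men1 knockout, less Rbp2 knockout minus RIP-Cre) was 0.39 and not called (limma adjusted p = 0.151). Its X-linked counterpart Rps4x, which codes for the small subunit protein itself, read 0.11, 0.04 and 0.14 in Men1 knockout, Rbp2 knockout and double knockout against RIP-Cre islets and was not called.

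Rpl39l, Rpl3l and Rpl10l, paralogues known for a tissue of their own, had no call that was kept after cyclic loess normalization. Rpl39l, a testis paralogue of Rpl39, had 6.86, 6.58 and 6.78 in Men1 knockout and 6.61, 6.82, 7.08 and 6.27 in double knockout arrays, against 7.03, 7.30 and 7.86 in RIP-Cre arrays. It fell by 0.66 ± 0.24 (limma adjusted p = 0.0313) and by 0.70 ± 0.22 (adjusted p = 0.0272; SE 0.225 unrounded), but neither call was kept after cyclic loess normalization or without RIP-Cre array 3. The Men1 knockout call was also lost without any 1 Men1 knockout array, and the double knockout call without double knockout array 4. Rpl3l, the heart and skeletal muscle paralogue of Rpl3, had the lowest mean level of the members (6.34) and read -0.33 in Men1 knockout islets (limma adjusted p = 0.0501), not called. Rpl10l, a testis paralogue of Rpl10, rose by 0.44 ± 0.14 in double knockout islets (limma adjusted p = 0.0225), a call lost after cyclic loess normalization and without RIP-Cre array 2 or double knockout array 2 or 4. Rpl7, for which a paralogue Rpl7l1 lies outside the rule, was not called in any of the 3 comparisons, with 0.12, 0.48 and 0.27 in Men1 knockout, Rbp2 knockout and double knockout islets. Rpl7l1 itself rose by 0.70 in Men1 knockout (limma adjusted p = 0.00332) and by 0.53 in double knockout islets (adjusted p = 0.0167). Fau, which codes for the small subunit protein Rps30, rose by 0.31 and 0.47 there, with -0.05 and 0.10 after cyclic loess normalization. The double knockout calls of Rpl7l1 and Fau and the Men1 knockout call of Fau were lost without RIP-Cre array 3.

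**Figure D4:**
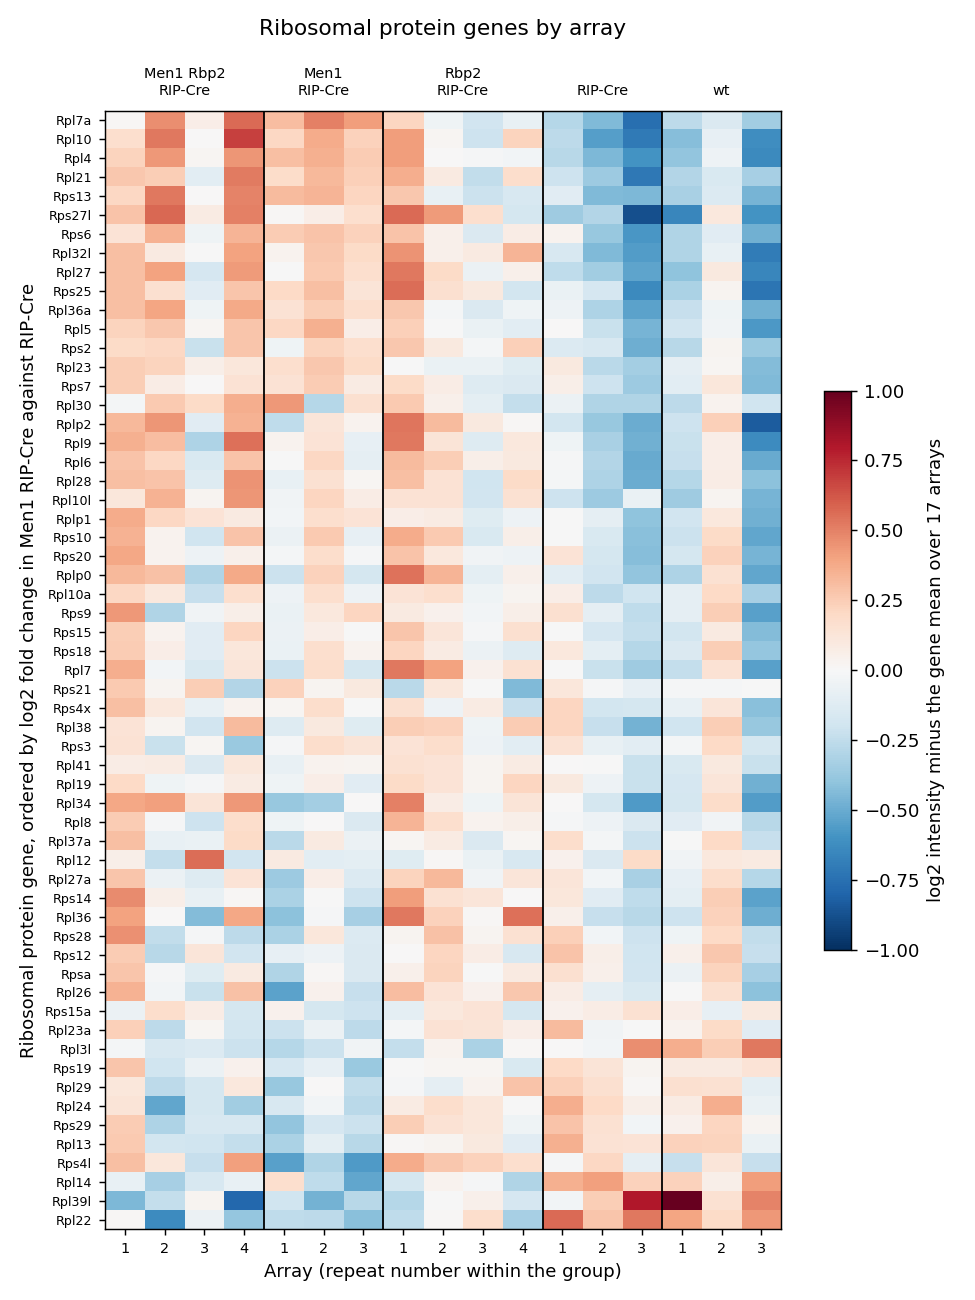
Log2 intensity of each of the 59 ribosomal protein genes minus its mean over the 17 arrays (colour), with genes in rows ordered by the fold change in Men1 knockout against RIP-Cre islets and arrays in columns by genotype. Within a group whole columns run redder or bluer across many rows, as in wt array 3, where most members lie below their mean and Rpl22, Rpl14 and Rpl39l lie above theirs.

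Counted by arrays that do not overlap with any RIP-Cre array, 16 members lay above and 11 below in Men1 knockout islets, against 18.7% and 44.8% of all genes. In Rbp2 knockout islets 13 lay above and 4 below (11.6% and 15.4% of all genes), and in double knockout islets 15 above and 2 below (14.2% and 24.9%). The 2 below in the double knockout were Rpl14 and Rpl22.

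Between the knockout groups few members were called. In double knockout against Men1 knockout islets 1 member, Rps4l, was higher and 0 lower, where 1.67% of all genes were called, 1.10% higher and 0.567% lower. At an unadjusted p under 0.05 stood 2 members, and the member median was 0.09 beside 0.07 over all genes. Groups that stood apart numbered 2 members above and 0 below, against 14.3% and 6.15% of all genes. Cyclic loess normalization gave 2 members higher and 0 lower, against 1.19% and 1.13% of all genes. In double knockout against Rbp2 knockout islets 0 of 59 members were called by limma, where 1.20% of all genes were called (0.582% higher, 0.617% lower) and 4 members had an unadjusted p under 0.05. Of the members, 2 lay above and 0 below without overlap (3.39% and 3.73% of all genes). The member median there was -0.01 (-0.005 unrounded), as over all genes. In Men1 knockout against Rbp2 knockout islets 1 member, again Rps4l, was lower and 0 higher, where 12.8% of all genes were called, 5.71% higher and 7.07% lower, with 10 members at an unadjusted p under 0.05 and a median of -0.10 (-0.095 unrounded). That count was 7, with 1 higher and 6 lower, after cyclic loess normalization (8.56% and 6.48% of all genes) and after quantile normalization, and 3 without Rbp2 knockout array 1. Groups that stood apart there numbered 2 members above and 7 below (11.7% and 16.1% of all genes).

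For the interaction 0 of 59 members were called by limma, where 3.39% of all genes were called (1.78% higher, 1.61% lower), and 10 had an unadjusted p under 0.05. The members with the widest values were Rpl22 (0.60, adjusted p = 0.0757) and Rpl7a (-0.60, adjusted p = 0.0706). Rpl22 fell by 0.77 with Men1 loss, by 0.56 with Rbp2 loss and by 0.72 with both against the same RIP-Cre arrays. The member median was -0.14 on the deposited values, against 0.20 over all genes, and turned to 0.12 after cyclic loess normalization.

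The transgene itself left no call. In RIP-Cre against wt islets 0 of 59 members were called by limma, as for all genes (0.00%), with 0 members at an unadjusted p under 0.05, and log2 fold changes from -0.25 (Rpl39l) to 0.15 (Rps4l). The member median was -0.00333. No member had RIP-Cre arrays that all lay above or all below the wt arrays, against 2.15% and 1.71% of all genes.

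Within a genotype the members varied from array to array in common. The member median lay between 11.14 and 11.50 in double knockout, 11.20 and 11.34 in Men1 knockout and 11.18 and 11.54 in Rbp2 knockout arrays. It was 11.30, 11.14 and 11.00 in the RIP-Cre arrays, which overlap with each knockout group, and 11.13, 11.43 and 10.93 in the wt arrays. The spread within either control group was wider than any median fold change of the family against RIP-Cre. Over the 1711 pairs of members the median correlation of deviations from the group means was 0.61, with 79.5% of pairs above 0, against 0.24 in the 1947 other genes of the highest 10% by level. The deviations of the member mean and of the median over all genes had a correlation of -0.59. These correlations are across 17 arrays that share the deposited normalization, and they are a description. Of the 59 members, 50 followed the mean of the others with a correlation above 0.5, up to 0.98 in Rps18. The 7 below 0 were Rpl39l (-0.66), Rps15a (-0.52), Rpl3l (-0.42), Rpl12 (-0.34), Rpl22 (-0.19), Rpl14 (-0.19) and Rps21 (-0.05). Rpl22 and Rpl14, the members lower in all 3 knockouts, are thus among those that did not follow the rest of the family within groups.

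**Figure D5:**
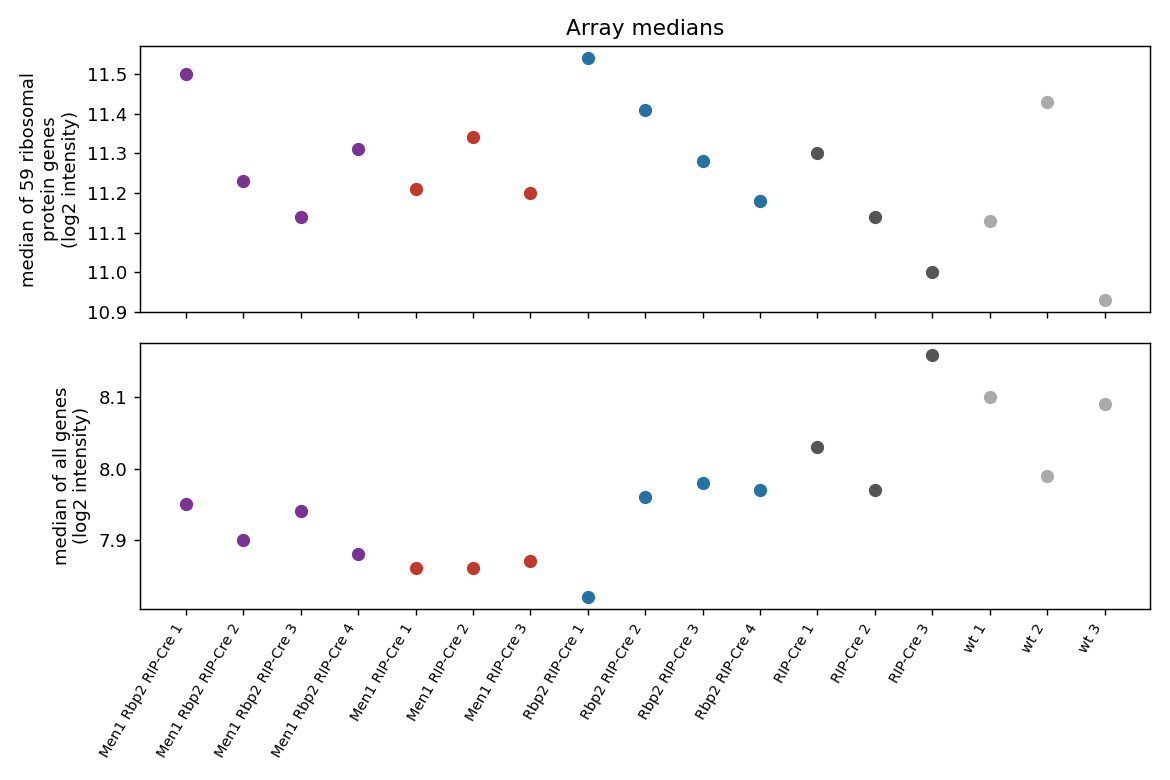
Median log2 intensity of the 59 ribosomal protein genes (upper panel) and of all genes (lower panel) in each of the 17 arrays, coloured by genotype with double knockout, Men1 knockout, Rbp2 knockout, RIP-Cre and wt from left to right. The member median spans 10.93 to 11.43 in the wt arrays, while the all-gene median is highest in RIP-Cre array 3 (8.16) and lowest in Rbp2 knockout array 1 (7.82).

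For members with more than 1 probe set, the range of log2 fold changes within a gene had a median of 0.16 in Men1 knockout islets. That is wider than the member median of 0.12 there. The median range was 0.14 in Rbp2 knockout and 0.15 in double knockout islets. The 59 members had 215 probe sets that name 1 gene. Of the members 39 had more than 1, Rps12 had 14, and 19 of the probe sets had the same 17 values as another. In Men1 knockout islets 53 of the 215 were higher and 26 lower (16.6% and 37.1% of all single-gene probe sets), in Rbp2 knockout islets 22 and 3 (6.95% and 6.82%), and in double knockout islets 66 and 13 (13.7% and 20.5%). Probe sets on both sides of 0 were seen in 7, 6 and 7 of the 39 members in these 3 comparisons. Only Rps2 had probe sets called both ways, in Men1 knockout islets, with 2 higher and 1 lower between -0.77 and 0.50, so its call there (0.38) is uncertain; it was also lost without Men1 knockout array 2 or 3 or RIP-Cre array 3. The brightest member was Rpl41, with a mean level of 12.91 (12.9053) and 0.07 in Men1 knockout islets, not called.

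Among the genes that act with the ribosome, more translation factors were higher than lower in each knockout. Of 25 translation initiation factors, 14 were higher and 1 lower in Men1 knockout, 13 and 0 in Rbp2 knockout and 18 and 0 in double knockout islets, with medians of 0.40, 0.42 and 0.44. Over all genes 15.7% were higher and 37.8% lower in Men1 knockout, 6.70% and 6.70% in Rbp2 knockout and 13.0% and 20.6% in double knockout islets, and among the other genes of the highest 10% by level 799, 508 and 778 of 1947 were higher. Eif4e, which binds the cap of messenger RNA, had 9.47, 9.15 and 9.39 in Men1 knockout arrays, against 8.51, 8.54 and 8.27 in RIP-Cre arrays, and rose by 0.90 (limma adjusted p = 0.00105). Eif5b, which joins the subunits, had 8.77, 8.68 and 8.76 in Men1 knockout arrays, against 8.95, 10.31 and 8.88 in RIP-Cre arrays, of which array 2 stood apart. Its log2 fold change of -0.64 was called, but it was -0.18 and not called without RIP-Cre array 2. In a list of 9 elongation factors and related genes, 5 were higher and 2 lower in Men1 knockout, 5 and 0 in Rbp2 knockout, and 5 and 1 in double knockout islets, among them Eef1a1, which delivers transfer RNA, with 0.71, 0.53 and 0.73. The lower ones in Men1 knockout were Eef1d (-0.40) and Eef2k (-0.25), which is a kinase of Eef2 and not itself an elongation factor. The list also holds Eef1e1 and Tpt1, which are not elongation factors in the strict sense. After cyclic loess normalization the medians of the initiation factors were 0.22, 0.22 and 0.26 and those of the elongation list 0.21, 0.10 and 0.24, above 0 as before. The ribosomal proteins had medians of -0.18, -0.04 and -0.06. Eef1a1 itself fell back to 0.24, 0.10 and 0.24 on that scaling. With the array median as a covariate the medians were 0.07, 0.19 and 0.20 for the initiation factors and 0.06, 0.24 and 0.12 for the elongation list. The difference between these lists was not tested.

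Genes that build and carry ribosomal proteins were mixed. Of 39 ribosome biogenesis genes, 6 were higher and 7 lower in Men1 knockout islets, 3 and 0 in Rbp2 knockout and 4 and 5 in double knockout islets, with medians of -0.00333, 0.015 and 0.032, each turning sign under at least 1 other scaling. In Men1 knockout islets this is 15.4% higher and 17.9% lower, against 15.7% and 37.8% of all genes. The shares of all genes were 6.70% and 6.70% in Rbp2 knockout and 13.0% and 20.6% in double knockout islets. Nop10, of the complexes that modify ribosomal RNA, rose by 1.30 in Men1 knockout (limma adjusted p = 0.000631), 0.69 in Rbp2 knockout and 0.93 in double knockout islets, while Bop1, a factor of 60S assembly, fell by 0.43 in Men1 knockout islets. Of 15 import factors and chaperones, 7 were higher and 2 lower, 4 and 1, and 4 and 2 in Men1 knockout, Rbp2 knockout and double knockout islets. Tsr2, which carries Rps26, rose by 0.68, 0.76 and 0.81, and Ipo7, which imports ribosomal proteins, by 0.86, 0.46 (0.465 unrounded) and 0.66 (0.655 unrounded). Grwd1, the chaperone of Rpl3, fell in all 3, by 0.56, 0.50 and 0.56. Of 12 genes of RNA polymerase I, which makes ribosomal RNA, 3 were higher and 3 lower in Men1 knockout islets, 0 were called in Rbp2 knockout islets by limma (3 at an unadjusted p under 0.05), and 2 were higher and 2 lower in double knockout islets.

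In the mTOR and S6 kinase list of 17 genes, 3 were higher and 3 lower in Men1 knockout, 3 and 0 in Rbp2 knockout and 4 and 0 in double knockout islets. Over all genes 15.7% were higher and 37.8% lower in Men1 knockout islets. These shares were 6.70% and 6.70% in Rbp2 knockout and 13.0% and 20.6% in double knockout islets. Rps6ka3, a kinase that phosphorylates Rps6, rose by 0.87, 0.48 and 0.67, and Eif4ebp1, the mTOR-controlled inhibitor of Eif4e, fell by 0.70 in Men1 knockout islets (limma adjusted p = 0.00442), with 7.91, 8.20 and 8.31 in Men1 knockout arrays, against 8.75, 8.55 and 9.22 in RIP-Cre arrays. Its relative Eif4ebp2, in contrast, rose by 0.52 in double knockout islets (limma adjusted p = 0.00399). Pdcd4 rose by 1.09 (limma adjusted p = 0.00105) and Akt1s1 fell by 0.36 (adjusted p = 0.0198) in Men1 knockout islets. Of 10 genes of p53 and nucleolar stress, 2 were higher and 4 lower in Men1 knockout islets, 0 higher and 1 lower in Rbp2 knockout islets and 1 higher and 2 lower in double knockout islets. The Men1 knockout counts are 20% and 40% of this list, near the shares of all genes. The Rbp2 knockout calls of Eef1a1, Nop10, Tsr2, Ipo7, Grwd1 and Rps6ka3 and the double knockout call of Grwd1 were lost without RIP-Cre array 3. Ccng1 rose by 0.81 and Bbc3, which promotes cell death, fell by 0.80 in Men1 knockout islets.

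The mitochondrial ribosome and the proteasome, 2 other large complexes, are given for comparison. Of 77 mitochondrial ribosomal proteins, 16 were higher and 11 lower in Men1 knockout, 15 and 3 in Rbp2 knockout and 22 and 8 in double knockout islets, with medians of -0.02, 0.11 and 0.09 that cyclic loess normalization set at 0.11, 0.17 and 0.19. With the array median as a covariate these medians were -0.04, 0.07 and 0.05. Of 39 proteasome subunits, 20 were higher and 5 lower, 16 and 1, and 20 and 3, with medians of 0.42, 0.30 and 0.35, of 0.27, 0.29 and 0.30 after cyclic loess normalization and of 0.11, 0.16 and 0.15 with the array median as a covariate. The shares of all genes called in these comparisons are those given beside the initiation factors. The cytosolic ribosomal proteins had -0.18, -0.04 and -0.06 after cyclic loess normalization. These differences between lists were not tested. Markers of cell types called in Men1 knockout islets were 5 of 8 for beta cells, 1 of 5 for macrophages and 1 of 4 for lymphocytes (higher), and 1 of 4 for other endocrine cells, 1 of 6 for acinar cells, 3 of 4 for duct cells, 2 of 4 for endothelial cells, 2 of 2 for Schwann cells and 1 of 1 for red blood cells (lower), with 0 of 5 for mesenchymal cells by limma (0 at an unadjusted p under 0.05). In double knockout islets they were 5 of 8 for beta cells, 1 of 5 for macrophages and 1 of 4 for lymphocytes (higher), and 1 of 4 for other endocrine cells, 1 of 4 for duct cells, 2 of 4 for endothelial cells and 2 of 2 for Schwann cells (lower). In Rbp2 knockout islets 3 of 8 for beta cells and 1 of 4 for endothelial cells were higher and 1 of 4 for duct cells was lower. With the acinar mean as a covariate the Men1 knockout count was 17 members higher and 10 lower, without the share of all genes in that fit beside it. The part of the other cell types was not tested.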

How the data were processed

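Islet RNA of 17 samples in 5 groups was measured on 1 array each. The authors deposited 1 log2 intensity for each probe set and array; how the scans were background-corrected and normalized, and by which program, is not given in the sources used here. Groups and repeat numbers come from the titles. Of 35512 probe sets, 21789 name 1 gene in the platform table, 1621 several and 12102 none or are not listed; 21698 were found in RefSeq (GRCm38.p6). The brightest probe set stood for a gene, and 999 of the 19938 genes had more than 1.

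The mean of each group was estimated in 1 linear model of all arrays (limma 3.58.1 in R 4.3.3, lmFit and eBayes), with 12 residual degrees of freedom. Adjusted p-values are Benjamini-Hochberg over all genes of a comparison, and a call is an adjusted p under 0.05. No level filter was applied, so all 59 members were tested. The fit was tested on simulated data. Arrays hold no counts, so their number limits the precision.

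The members, lists, motif and comparisons were chosen with earlier results of these data known. Named members are the up to 5 called with the highest and lowest log2 fold change against RIP-Cre (3 in other comparisons), Rplp0, Rps6, Rpl5, Rpsa, paralogues, and the brightest and dimmest; of other lists, up to 2 called each way by moderated t. Others, such as those called on both scalings (Rpl13, Rpl24, Rpl29, Rps19, Rps29, Rplp2), were chosen after their values were seen. Alternatives were normalization, control group, covariates, probe set, variance model, repeat number as a block, and arrays left out. Apart from cyclic loess normalization, member counts under these alternatives stand without the share of all genes called. Such counts do not show whether the members changed apart from the other genes.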

Additional observations from a re-analysis of the deposited data

Results flagged for a closer look

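In 46 tests of the named members and member medians, group by group in the groups of 4 arrays, 4 had a single array far from the other 3; over all members it was 8 of 118, and chance gives about 1 in 20. Rpl10l was 10.19 in the third Rbp2 knockout array, against 10.53 to 10.54 in the other Rbp2 knockout arrays. Rpl4 was 12.11 in the first Rbp2 knockout array, against 11.66 to 11.69 in the others. Rpl13 was 10.41 in the first double knockout array, against 9.91 to 9.96 in the others, and Rplp0 was 11.65 in the third double knockout array, against 12.24 to 12.33. The third double knockout array also had an acinar marker mean of 10.57, and the part of this in the Rplp0 value was not tested.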

How the results depend on the processing

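With the array median as a covariate, cyclic loess and quantile normalization, in this order, the median of the members was -0.14, -0.18 and -0.19 in Men1 knockout, 0.0417, -0.0357 and 0.0194 in Rbp2 knockout and -0.0051, -0.0564 and -0.0456 in double knockout against RIP-Cre islets, and 0.10, 0.12 and 0.10 (0.0954) for the interaction. In RIP-Cre against wt islets without the 3 control arrays of high median (wt 1, wt 3 and RIP-Cre 3) it was -0.16 (-0.155), with the lone wt array assumed to vary like the other groups. With the array median as a covariate 1, 0 and 0 members were called in Men1 knockout, Rbp2 knockout and double knockout against RIP-Cre islets, and without those 3 arrays 15, 0 and 11. In Rbp2 knockout islets the count was 4 after cyclic loess and after quantile normalization, 2 with only the arrays compared and 2 against wt. In double knockout against Men1 knockout islets it was 2 with the acinar or array median covariate, after cyclic loess or quantile normalization and without those 3 arrays; for the interaction it was 1 with the acinar covariate. In Men1 knockout against Rbp2 knockout islets it was 3 with the level filter, 6 with the acinar and 4 with the array median covariate, 7 after cyclic loess and after quantile normalization, 3 with an intensity trend, 4 with the lowest probe set, 5 with only the arrays compared and 2 without those 3 arrays.

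With an array left out in turn the counts ranged from 13 to 22 in Men1 knockout, 0 to 13 in Rbp2 knockout and 10 to 26 in double knockout against RIP-Cre islets, 0 to 1 in double knockout against Men1 knockout, 0 to 0 against Rbp2 knockout, 1 to 3 in Men1 knockout against Rbp2 knockout, 0 to 0 in RIP-Cre against wt and 0 to 1 for the interaction. The repeat numbers gave no clear pairing of the arrays. Of 31 same-number pairs 10 correlated above 0.1 (median 0.01), against 21 of 84 pairs of different number (median -0.0054). Arrays numbered 3 of wt, RIP-Cre, Rbp2 knockout and double knockout islets did correlate with each other (0.22 to 0.45), but Men1 knockout array 3 did not (-0.06 to 0.08). The replicate block gave 25, 11 and 26 called members against RIP-Cre in Men1 knockout, Rbp2 knockout and double knockout islets and 2 in Men1 knockout against Rbp2 knockout islets. Array median and genotype cannot be told apart in Men1 knockout and double knockout islets, where every array median lay below those of the RIP-Cre arrays. Reversed were Rpl39l (0.0101) and Rps27l (-0.14) in Men1 knockout islets with the array median as a covariate, and with the lowest probe set Rpl7a in Men1 knockout (-0.17) and Rpsa in double knockout islets (-0.46). The cause of these changes was not tested.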
